A study of Mus musculus with 221 samples.

Results

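Transcripts annotated as targets of nonsense-mediated decay (NMD) were examined in long-read nanopore libraries of single mouse embryonic cells. The members were the transcripts whose biotype in the count table is nonsense_mediated_decay and whose estimated counts summed to at least 10 over all cells with a total of 17595 counts or more. This gave 2591 of the 7247 NMD transcripts in the table, which lists 278369 transcripts in all, and they came from 1981 of its 78317 genes. The other 4656 NMD transcripts held 7620 counts together, 0.0777% of all counts, and 2446 of them had none. The members were chosen by their summed counts, so those sums describe the selection and support nothing. The members just inside the limit, Ercc8-203, Gpr137-205 and Spopl-202, had 10 counts, and the nearest outside were Cyp4f16-207 with 9.99999, Washc4-202 with 9.99932 and Piga-203 with 9.99848.

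The cells were hemogenic endothelium (HE), the endothelium from which blood cells emerge, and early blood progenitors. They were untreated primary cells, sorted singly. The study's methods describe embryos of C57BL/6JOlaHsd males that carried the Runx1b RFP or Gfi1 GFP reporter and wild-type CD-1 females. Yolk sac HE was sorted as KIT+ CD31+ and AGM HE by a KIT- CDH5+ phenotype, so the sort and the origin of the cells cannot be told apart. Full-length complementary DNA (cDNA) made by the Smart-seq2 protocol from their polyadenylated RNA was sequenced on a nanopore instrument in 3 runs, each with cells of every cluster. HE of the aorta-gonad-mesonephros region (HEAGM) consisted of the early cluster AGM_3 (29 cells used) and the late cluster AGM_4 (20 cells). Arterial-type HE of the yolk sac (HEYSA) consisted of YS_m1 (early, 23 cells) and YS_m2 (late, 29 cells), and plexus-type HE of the yolk sac (HEYSP) of YS_b2 (early, 25 cells) and YS_b3 (late, 24 cells). The remaining clusters were AGM_5, labelled HE-Hb (21 cells), YS_p1, early yolk sac progenitors skewed to lymphoid-myeloid fates (17 cells), and YS_p2, early progenitors skewed to erythroid-myeloid fates (20 cells). HEYSA and HEYSP together are called HEYS (101 cells). The library names place yolk sac cells at E9.0, E9.5 or E10.5 and give no stage for most AGM cells. The labels name no embryo for any cell, so a cluster counts as 1 sample, no test was run, and the intervals given here cover counting error only.

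Of 221 labelled cells, 208 passed the limit on the total, with totals of 18131 to 125339 counts. The median total was 59311 in HEAGM and 33750 in HEYS. Summed levels of 8 endothelial genes ranged from 528 CPM (counts scaled to a total of 1e6 per group) in AGM_5 to 2716 CPM in AGM_3, and those of 8 blood genes from 215 CPM in YS_b2 to 1327 CPM in AGM_5. The macrophage genes C1qa, C1qb and C1qc and the yolk sac endoderm genes Ttr, Apoa4 and Folr1 were at 0 in every cell used. Other genes of these lists were not. The 6 macrophage genes together reached 12.2 CPM in YS_m2 and 205 CPM in a cell of YS_b2. The 5 endoderm genes reached 96.1 CPM in a cell of YS_m2. Summed megakaryocyte genes reached 52.9 CPM in YS_b2 and 541 CPM in 1 of its cells. Mesenchyme genes reached 172 CPM in AGM_5 and 499 CPM in 1 of its cells. Erythroid genes reached 11841 CPM in a single cell of AGM_3. With the exception of 1 cell of YS_m1, AGM and yolk sac cells came from different cDNA projects, so the origin of the cells and the project cannot be told apart in any comparison between AGM and yolk sac.

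NMD is a surveillance pathway that degrades messenger RNAs whose reading frame ends too early. A stop codon that lies well upstream of the last exon-exon junction leaves a protein complex, the exon junction complex, on the RNA behind the terminating ribosome, and factors such as UPF1 then trigger decay. Many genes for splicing regulators use this route: they splice in a so-called poison exon and so produce an isoform that is destroyed in place of one that is translated. The biotype is a prediction from transcript structure, and a transcript that carries it may escape decay.

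The structure of 2546 members (98.3%) was read from matching transcripts of the GENCODE M21 annotation (build GRCm38). Of 2545 with an annotated stop codon, 2532 had it more than 50 bases upstream of the last exon-exon junction, and the median distance was 373 bases. A median of 3 exons followed the exon with the stop. The stop codon was TGA in 1489 members, TAA in 557 and TAG in 499. The members' own end of the reading frame was often not unique to them: in 1118 of 2544 the last 30 coding bases also occurred in a protein-coding isoform of the gene, and in 1426 they did not. A median of 95.2% of a member's 31-base words occurred in coding isoforms of its gene, which leaves little sequence by which a partial read can be told from a coding isoform. The annotated start of the reading frame was missing in 574 members.

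The last 30 coding bases of 8 members whose levels are described below are shown, because they mark where translation of each would end. The stop codon is in capitals, and all are given 5′ to 3′ on the strand of the gene, from GENCODE M21.
Eef1b2-206: gaagaaatctttgggcaagtatggcccTAG
Hsp90ab1-206: ctctccaggctggtgcagacatctccaTGA
Rpl3-205: gcccctcccccaactgtgctctgctccTGA
Sumo3-205: cagttcttagctctgactattcttctgTGA
Srsf6-201: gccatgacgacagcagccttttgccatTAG
Klf6-203: gaggggattgctgatctctgcagtgtgTAG
Ddx5-208: accgatgtggcctccagagggctaggtTAG
Rbm3-207: gcctgggaggcgacgactggtcctgcaTGA
The stop of Eef1b2-206 (chromosome 1) lies in exon 3 of 5, 152 bases before the last junction. That of Hsp90ab1-206 (chromosome 17) lies in exon 5 of 6, 138 bases before it. Srsf6-201 (chromosome 2) ends its frame in exon 3 of 7, with 534 bases to the last junction. Ddx5-208 (chromosome 11) ends it in exon 11 of 12, with 1485 bases to the last junction. These 30 bases were also found in a coding isoform for Eef1b2-206, Hsp90ab1-206 and Srsf6-201, and not for Rpl3-205, Sumo3-205, Klf6-203, Ddx5-208 or Rbm3-207.

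A few members carried much of the signal. The members held 363302 of 9805356 counts, and 134 of them accounted for 50% of that. In 1927 members the summed count was below 100, in 609 it was from 100 to below 1000, and in 55 it was 1000 or more. Most parent genes (1530) had a single member, 451 had 2 or more, and Tmem234 had 10. A member took a median of 16.9% of its gene's counts. It took more than 50% in 333 cases and more than 90% in 75, among them Ndufs4-204 of a subunit of respiratory complex I, at 94.0% in HEAGM and 98.9% in HEYS.

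NMD transcripts made up 3.55% of all counts in HEAGM (95% exact binomial interval 3.53 to 3.57) and 3.95% in HEYS (3.93 to 3.96). In HEYSA the share was 4.00% and in HEYSP 3.88%. The difference of HEAGM minus HEYS was -0.39 percentage points, and -0.53, -0.26 and -0.36 points in runs 1, 2 and 3, while the SD over the runs was 0.027 points in HEAGM and 0.134 in HEYS. By cluster, the share was 3.59% in AGM_3, 3.51% in AGM_4 and 3.24% in AGM_5, below all 6 yolk sac clusters, which lay between 3.81% in YS_b2 and 4.02% in YS_p1.

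Single cells overlapped. The share of a cell ranged from 3.11 to 4.28% in HEAGM with a median of 3.52%, and from 3.05 to 4.92% in HEYS with a median of 3.89%. Of 49 HEAGM cells, 43 lay below the HEYS median, and of 101 HEYS cells, 92 lay above the HEAGM median. Among cells with totals of 30000 to 60000 counts (26 in HEAGM, 55 in HEYS), the shares were 3.58% and 4.04%. No HEAGM cell of run 3 lay in that range. With every cell thinned to 28000 counts they were 3.57% and 3.96%.

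The difference was also present within the parent genes. Members took 21.7% of the counts of their genes in HEAGM (interval 21.6 to 21.8), 24.6% in HEYSA and 24.2% in HEYSP. The share was 24.5% in HEYS, and the difference of HEAGM minus HEYS was -3.06, -2.17 and -2.87 points in runs 1, 2 and 3. The parent genes themselves took a similar part of all counts, 16.4% in HEAGM and 16.1% in HEYS. With the parent levels of HEYS applied to the shares of HEAGM, the share of the 1962 parents with counts in both was 22.3%, compared with 21.7% as observed in HEAGM and 24.4% in HEYS. Genes moved in both directions: among 1236 parents with 50 or more counts in each population, the share of NMD transcripts was lower in HEAGM in 694, higher in 524 and equal in 18, with a median difference of -1.13 points.

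**Figure D1:**
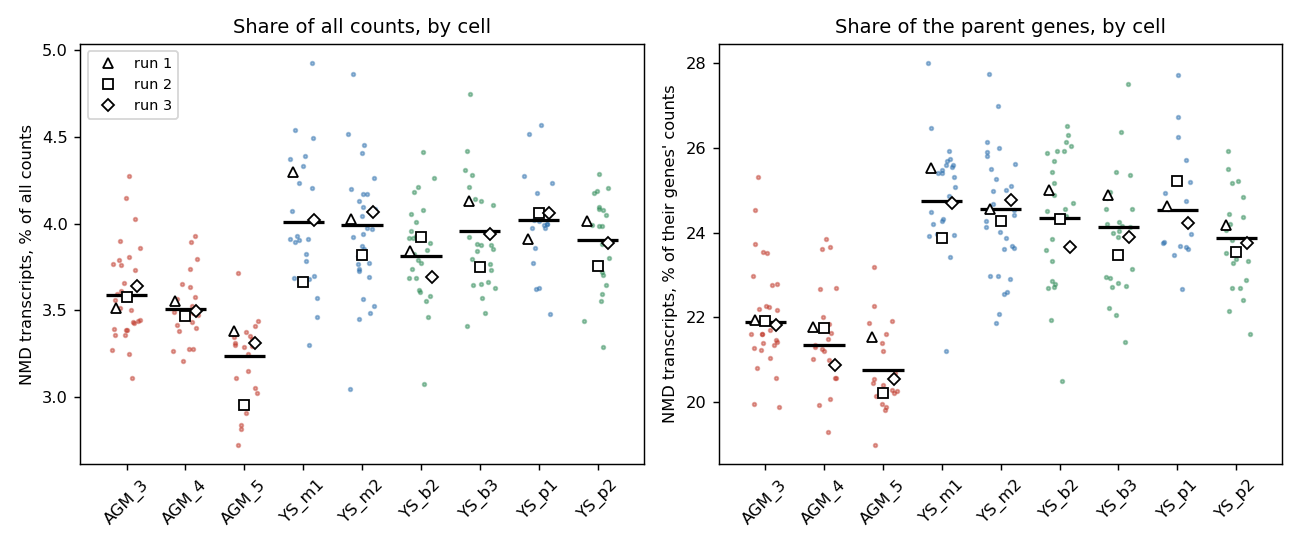
NMD transcripts as a percentage of all counts (left) and of the counts of their parent genes (right) in the 9 clusters. Each dot is a cell, black lines are shares of summed counts and open symbols are the shares in runs 1, 2 and 3. AGM clusters lie at 3.24 to 3.59% of all counts and yolk sac clusters at 3.81 to 4.02%, with cells of both origins overlapping.

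Transcript length moved together with this difference. The mean annotated length per counted transcript was 1507 bases in HEAGM (1424, 1457 and 1588 in the 3 runs) and 1166 bases in HEYS (1176, 1135 and 1178). Among the members alone these means were 1676 and 1280 bases. Members shorter than 800 bases (731 transcripts) took 1.20% of all counts in HEAGM and 1.64% in HEYS. Those of 800 to under 1600 bases (678) took 1.01% and 1.36%. Members of 1600 bases and over (1182) had the opposite order, with 1.35% in HEAGM and 0.948% in HEYS. Each of these orders held in all 3 runs.

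The order by length was not particular to NMD transcripts. Over all transcripts with 10 or more counts, those below 800 bases took 44.1% of counts in HEAGM and 48.7% in HEYS, and those of 1600 bases and over took 29.1% and 18.9%. Within the parent genes, members below 800 bases took 14.1% of counts in HEAGM and 18.7% in HEYS, whereas members of 1600 bases and over took 24.4% and 22.9%. The 1760 members shorter than the mean coding isoform of their gene, weighted by counts, took 17.01% of their genes in HEAGM and 22.8% in HEYS. The 748 longer ones took 22.6% and 18.5%. The part of transcript length, of the length of the cDNA or of the cDNA project in the lower NMD share of HEAGM was not tested.

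**Figure D2:**
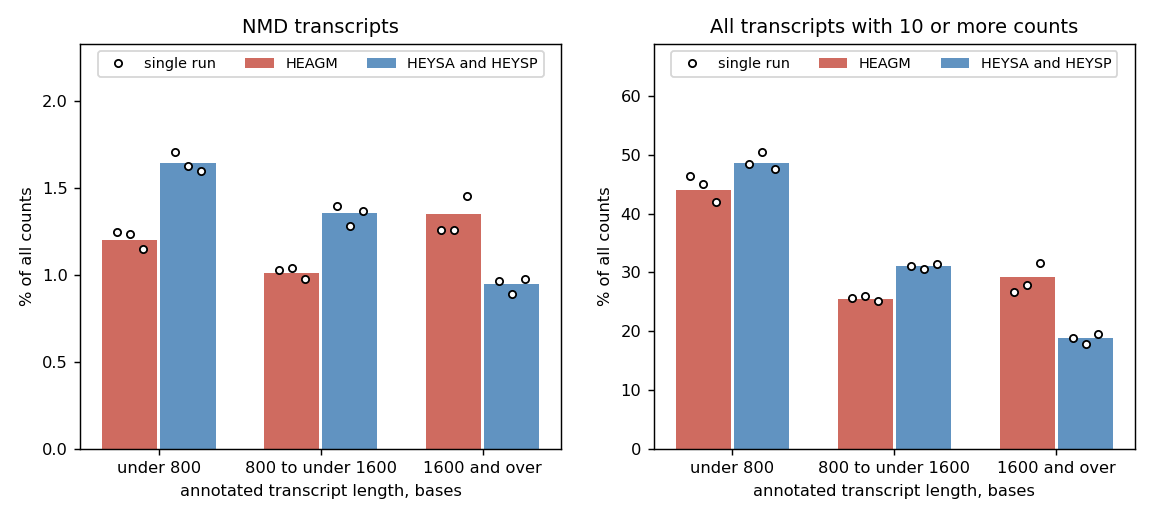
Percentage of all counts in 3 classes of annotated transcript length, for NMD transcripts (left) and for all transcripts with 10 or more counts (right). Bars are summed cells of HEAGM and of HEYSA and HEYSP together, and points are single runs. In both panels HEAGM is lower in the 2 shorter classes and higher at 1600 bases and over.

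Other annotated classes did not share one direction. Retained-intron transcripts took 6.04% of all counts in HEAGM and 5.32% in HEYS, and protein-coding transcripts 55.2% and 50.3%. Coding-gene transcripts with no defined reading frame took 4.24% and 4.51%, and processed pseudogenes 13.6% and 20.4%. Within the parent genes of the members, coding isoforms took 60.4% of counts in HEAGM and 56.8% in HEYS, and retained-intron isoforms 13.5% and 12.4%.

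For single members, a difference was called where the CPM of the summed cells differed at least 2-fold, with a floor of 3 counts, and had the same direction in each run. Of 2591 members, 514 (19.8%) were higher in HEAGM than in HEYS and 507 (19.6%) were lower. Over all 36092 transcripts with 10 or more counts the same rule called 23.3% higher and 14.7% lower, so fewer members were higher and more were lower than in this background. For the 1963 members above the floor in both populations, the median log2 ratio of HEAGM to HEYS was 0.14, beside 0.32 over all 27283 such transcripts. The calls differed by length, among members as over all transcripts. Below 800 bases, 60 members (8.21%) were higher and 253 (34.6%) lower, beside 15.04% and 23.95% of all transcripts of that length. At 800 to under 1600 bases, 99 (14.6%) were higher and 182 (26.8%) lower, beside 15.3% and 21.7%. At 1600 bases and over, 355 (30.03%) were higher and 72 (6.09%) lower, which was close to the 32.1% and 5.68% of all transcripts of that length.

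The share of the parent gene was compared for the 1720 members whose gene had at least 50 counts in each population. The share was higher in HEAGM by 10 points or more, and in each run, for 165 members (9.59%) and lower for 245 (14.2%). Over all 19060 transcripts compared this way, 11.2% were higher and 10.3% lower.

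**Figure D3:**
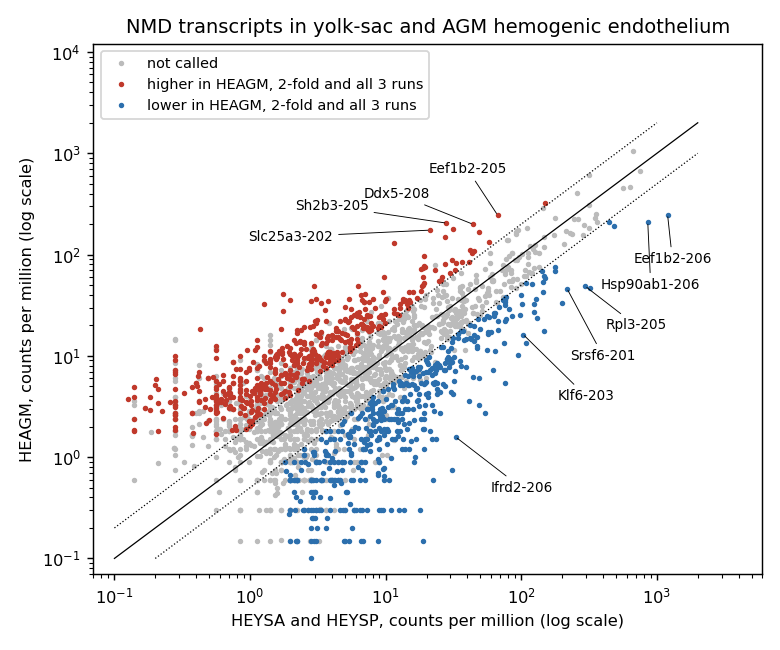
CPM of NMD transcripts in HEYSA and HEYSP together (horizontal, log scale) and in HEAGM (vertical, log scale), one point per transcript, with the line of equal levels and dotted lines at 2-fold. Of 2591 members, 2412 have at least 0.1 CPM in both and are plotted, and 514 and 507 members were called higher and lower in HEAGM.

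The largest contribution to the lower share of HEAGM came from Eef1b2-206, an isoform of 482 bases from the gene for a subunit of the translation elongation factor that recharges eEF1A. It stood at 246 CPM in HEAGM and 1199 CPM in HEYS. In HEAGM it took 22.2% of the gene's counts (32.1, 23.2 and 15.4% in runs 1, 2 and 3) and in HEYS 80.9% (83.6, 77.1 and 80.9%). The 3 AGM clusters lay between 21.96 and 22.4% and the 6 yolk sac clusters between 79.6 and 82.4%. Within single cells the share ranged from 0.011 to 75.1% in HEAGM, with a median of 19.8%, and from 41.8 to 98.8% in HEYS, with a median of 84.0%. It exceeded 50% in 8 of 49 HEAGM cells and in 99 of 101 HEYS cells. The coding isoform Eef1b2-209, of 681 bases, took 47.9% of the gene in HEAGM and 4.82% in HEYS, and a second NMD isoform, Eef1b2-205 of 691 bases, took 22.2% and 4.51%. No count of Eef1b2-206 or Eef1b2-205 was within 1e-06 of a whole number, so their levels depend on how the estimate divided reads among isoforms.

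Hsp90ab1-206, of 703 bases, comes from the gene for the constitutive cytosolic chaperone HSP90 beta. It stood at 208 CPM in HEAGM and 856 CPM in HEYS, while the gene as a whole had 3127 and 3018 CPM. Its share of the gene was 6.64% in HEAGM (6.31, 5.80 and 7.27% in the runs) and 28.4% in HEYS (23.4, 23.4 and 36.2%). The full-length coding isoform Hsp90ab1-201, of 2520 bases, took 71.3% in HEAGM and 16.7% in HEYS. The cell medians of the Hsp90ab1-206 share were 5.404% and 26.97%, and the cells overlapped, reaching 28.7% in HEAGM and starting at 3.30% in HEYS. Of the counts of Hsp90ab1-206, only 2.27e-09% were within 1e-06 of a whole number, so its level also depends on how the estimate divided reads. Eef1b2-206 and Hsp90ab1-206 together contributed -0.16 points in HEAGM, 40.9% of the net difference in the share of all counts. That net was the balance of 1361 members that added 1.09 points and 1226 that contributed -1.48 points.

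**Figure D4:**
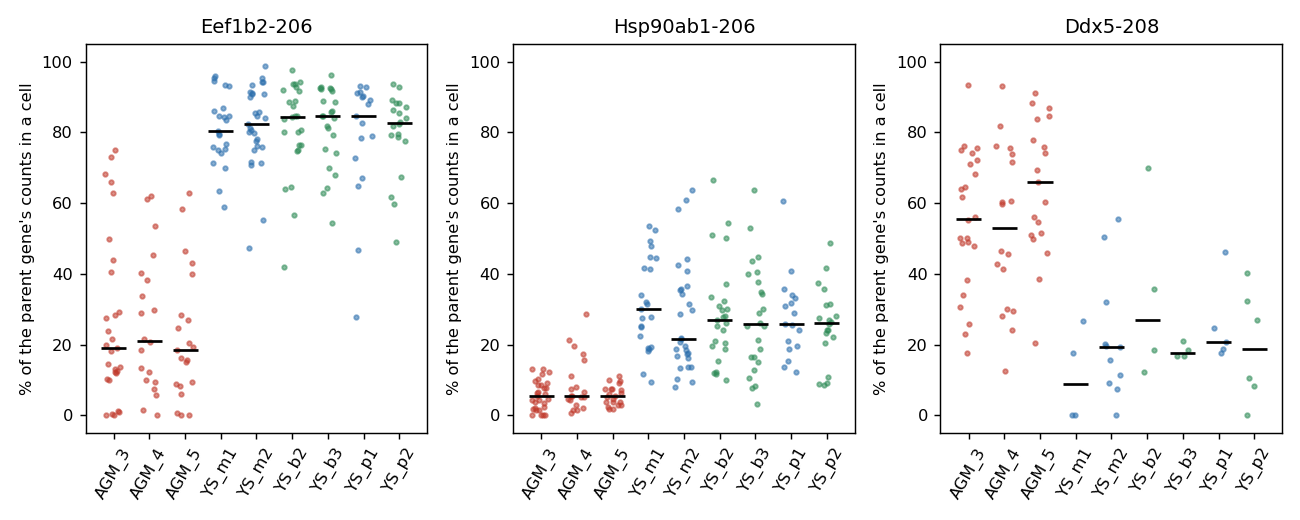
Share of the parent gene's counts taken by Eef1b2-206, Hsp90ab1-206 and Ddx5-208 in single cells with at least 10 counts of the gene, by cluster, with black lines at the cluster medians. Eef1b2-206 and Hsp90ab1-206 are lower in the AGM clusters and Ddx5-208 is higher, and cells of different clusters overlap in each panel.

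The yolk sac cell from an AGM project and 2 more with AGM in their library names lay within the range of the other yolk sac cells. Their shares of NMD transcripts were 3.92, 3.93 and 4.33% of all counts, their mean transcript lengths 1152 to 1185 bases and their Eef1b2-206 shares 80.1 to 95.3%. Of 6 AGM_3 cells from other projects than the remaining AGM cells, the NMD share ranged from 3.27 to 4.15%, the mean length from 1544 to 1859 bases and the Eef1b2-206 share from 0.021 to 75.1%.

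Other members with large contributions were chosen after their values were seen. Sumo3-205, from a gene for a small ubiquitin-like modifier, took 25.4% of its gene in HEAGM and 72.5% in HEYS, at 46.3 and 320 CPM. The coding isoform Sumo3-202 took 68.3% in HEAGM and 17.1% in HEYS. Rpl3-205, an isoform of a large-subunit ribosomal protein gene, took 5.92% in HEAGM (8.31, 7.04 and 4.02% in the runs) and 28.6% in HEYS (31.9, 28.1 and 26.3%), at 48.5 and 297 CPM. Cell medians of the Rpl3-205 share were 5.50% and 27.9%. In the opposite direction, Slc25a3-202, from the gene for the mitochondrial phosphate carrier, took 31.5% in HEAGM (22.8, 35.3 and 34.9%) and 2.18% in HEYS (1.597, 3.26 and 1.97%). Ctnnb1-208, from the gene for beta-catenin, stood at 326 CPM in HEAGM and 151 CPM in HEYS with 43.1% and 36.2% of its gene. The whole gene stood at 757 and 417 CPM. The coding isoform Ctnnb1-201 had nearly the same values as Ctnnb1-208, 317 and 147 CPM with 41.9% and 35.3%. Of the counts of Ctnnb1-208, 4.72% were whole numbers to within 1e-06, so its level depends on how the estimate divided reads.

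The members with the largest loss of parent share in HEAGM, apart from Eef1b2-206, were short isoforms of genes with longer coding transcripts. Cenpf-201, of 609 bases, took 13.4% of the counts of this kinetochore protein gene in HEAGM and 90.4% in HEYS. Its own CPM was 23.1 and 33.0 and was not called different. The coding isoform Cenpf-204, of 11130 bases, took 84.9% and 4.22%. The runs of HEAGM disagreed on Cenpf-201, with 3.54, 60.3 and 29.2%. Klf6-203, from the gene for a zinc-finger transcription factor, took 30.5% in HEAGM and 84.7% in HEYS, at 16.2 and 103.4 CPM. It had no count in the HEAGM cells of run 2, and its lowest yolk sac share was in YS_p2, at 33.3%, which rests on 3 counts (95% exact binomial interval 7.49 to 70.1%). Lrrcc1-204 took 16.7% and 82.8%. Coq5-202, from a gene of coenzyme Q synthesis, took 8.48% and 65.1%. Obi1-203 took 8.42% and 62.4%, and Ifrd2-206 5.25% and 57.1%. Coq5-202, Obi1-203 and Ifrd2-206 had 8 or fewer counts in HEAGM and 68 or more in HEYS, and Lrrcc1-204 had 12 and 48.

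Among the members with the largest gain of parent share in HEAGM, Mlst8-206 from the gene for a subunit of the mTOR complexes took 68.2% in HEAGM and 17.2% in HEYS. At least 1 count of it was present in 6 HEAGM cells and 4 HEYS cells, and its share in the HEAGM runs was 12, 90 and 76%. Sh2b3-205, of 4313 bases, comes from the gene for the adaptor LNK, a brake on cytokine signalling in blood progenitors. It stood at 205 CPM in HEAGM and 28.1 CPM in HEYS. It took 80.0% of its gene in HEAGM (73.1, 91.1 and 78.9%) and 41.0% in HEYS (44.4, 44.6 and 32.4%), and 45 of 49 HEAGM cells and 28 of 101 HEYS cells had at least 1 count. Rbm3-207, from the gene for a cold-inducible RNA-binding protein, took 40.4% in HEAGM (36.1, 23.6 and 58.7%) and 4.39% in HEYS (4.75, 4.52 and 3.92%). Chek2-204, from a DNA damage kinase gene, took 69.1% and 23.2%. Stam-209, Doc2a-208 and Ufsp2-204 took 78.2, 46.2 and 65.7% in HEAGM and 38.9, 7.02 and 28.5% in HEYS. Chek2-204, Stam-209, Doc2a-208 and Ufsp2-204 stood at only 14.4 to 25.3 CPM in HEAGM and 1.12 to 7.33 CPM in HEYS. Each had from 62 to 154.7 counts over all cells, so these shares rest on few counts.

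**Figure D5:**
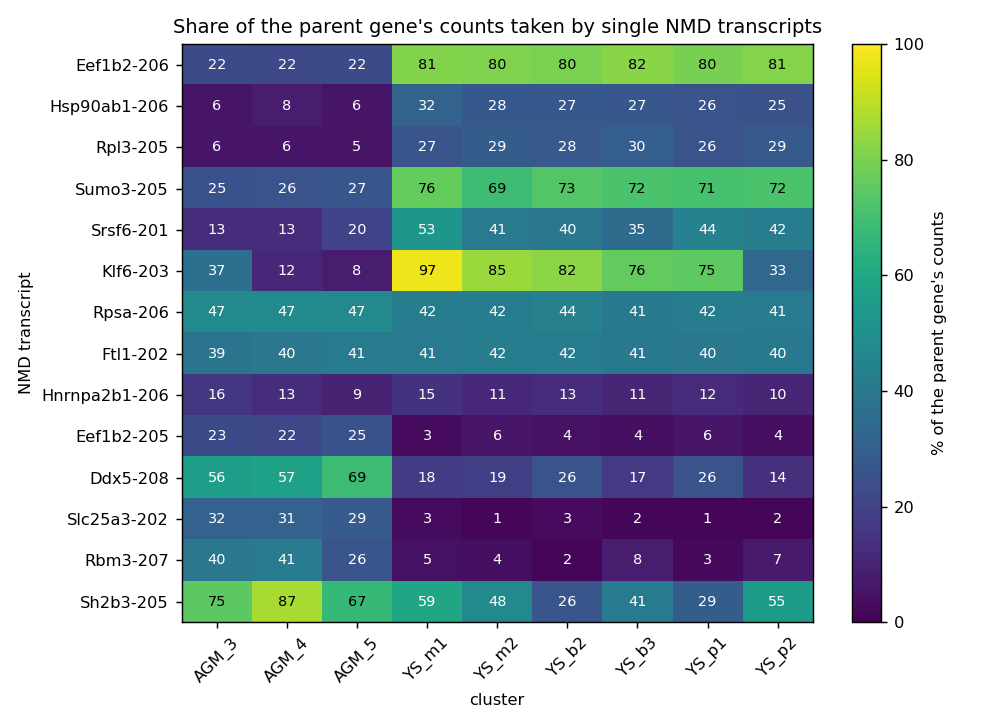
Share of the parent gene's counts (colour and printed percentage) taken by single NMD transcripts in the 9 clusters, from summed counts. Eef1b2-206 lies at about 22% in each AGM cluster and at 79.6 to 82.4% in the yolk sac clusters, Ddx5-208 and Slc25a3-202 are highest in the AGM clusters, and Ftl1-202 stays between 38.7 and 41.9% in all 9. The share of Ftl1-202 depends on how the estimate divided reads among isoforms.

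Not every abundant member differed. Ftl1-202, from the gene for the ferritin light chain, took 39.10% of its gene in HEAGM and 41.4% in HEYS and stayed between 38.7 and 41.9% over the 9 clusters. No count of Ftl1-202 was within 1e-06 of a whole number, so this share depends on how the estimate divided reads. The coding isoform Ftl1-201 stood at 466 CPM in HEAGM and 644 CPM in HEYS, beside 465 and 634 CPM for Ftl1-202. Rbm38-205, from the gene for an RNA-binding protein of the p53 network, took 71.1% and 75.2%, with runs of 68.6 to 73.3% and 68.4 to 82.0% that overlapped. Of its counts, 99.8% were whole numbers to within 1e-06. Mrpl17-203, from a mitochondrial ribosomal protein gene, took 88.2% in HEAGM and 87.3% in HEYS although its level was 194 and 481 CPM, a called difference that the whole gene shared (220 and 551 CPM). Cct7-202, from a chaperonin subunit gene, took 57.3% and 53.6%. Prdx6-208, from a peroxiredoxin gene, stood at 306 and 313 CPM and took 60.4% and 48.5%. Ppia-201 of the cyclophilin A gene took 19.8% and 14.3%. No count of Ppia-201 was within 1e-06 of a whole number. The coding isoform Ppia-202 stood at 606 CPM in HEAGM and 316 CPM in HEYS, beside 609 and 317 CPM for Ppia-201. Skp1-205, from a ubiquitin ligase subunit gene, was lower in HEAGM, at 209 CPM against 444 CPM, and took 43.7% against 71.0% of its gene.

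The genes of splicing regulators are known for poison-exon isoforms, and 33 members belonged to SR proteins and SR-like regulators. Of these, 8 (24.2%) were higher in HEAGM, 3 (9.09%) lower and 22 not called, so the higher share was close to the 23.3% of all transcripts and the lower share was below their 14.7%. Their median log2 ratio was 0.63 beside 0.32 over all transcripts. Together they took 11.6% of their genes' counts in HEAGM (12.3, 11.6 and 11.2% in the runs) and 15.9% in HEYS (17.5, 14.5 and 15.2%), while the genes stood at 4412 CPM in HEAGM and 3589 CPM in HEYS. The members together stood at 514 CPM in HEAGM and 569 CPM in HEYS, of which Srsf6-201 alone held 46.0 and 217.5 CPM. The lower share of the list in HEAGM therefore rested largely on Srsf6-201. Srsf6-201, of 1666 bases, was lower in HEAGM, at 46.0 CPM (62.0, 46.9 and 34.8 in the runs) against 217.5 CPM in HEYS (237, 191 and 217). It took 13.01% of Srsf6 in HEAGM and 42.2% in HEYS. The retained-intron isoform Srsf6-204 took 67.6% and 51.0% and the coding isoform Srsf6-203 19.2% and 6.29%. Tra2b-206 took 21.9% in HEAGM and 40.8% in HEYS and was not called different in CPM. Srrm1-204 took 36.9% and 20.3% and was not called different either. Srsf2-202 took 5.75% and 6.84%, Srsf2-204 0.598% and 1.04%, Srsf9-205 7.11% and 6.21% and Srsf1-204 2.02% and 1.67%. Arglu1-203 took 2.69% and 8.22% at similar levels of 6.91 and 6.71 CPM. Srsf2-202, Srsf9-205 and Srsf1-204 were called higher in HEAGM in CPM while these shares of their genes differed by about 1 point or less.

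Of 31 members of hnRNP and related RNA-binding protein genes, 10 (32.3%) were higher in HEAGM, 5 (16.1%) lower and 16 not called, beside 23.3% and 14.7% of all transcripts. Their median log2 ratio was 0.07. They took 15.6% of their genes in HEAGM and 18.3% in HEYS. Hnrnpa2b1-206 took 14.7% and 12.04%, with runs of 11.9, 12.8 and 17.5% against 10.9, 12.5 and 12.7%. Hnrnpd-209 was higher in HEAGM, at 110 CPM against 41.6 CPM in HEYS, and its share of Hnrnpd was 24.84% and 24.98%. Hnrnpl-213 was higher too, at 40.2 CPM against 6.58 CPM, with shares of 8.26% and 8.71%. Hnrnpdl-201 took 73.1% in HEYS (74.0, 69.8 and 74.4%) and 50.7% in HEAGM (43.7, 51.3 and 54.9%).

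Among 23 members of core spliceosome genes, 5 (21.7%) were higher in HEAGM, 8 (34.8%) lower and 10 not called, beside 23.3% and 14.7% of all transcripts. Their median log2 ratio was -0.64, and their share of their genes was 16.4% in HEAGM and 16.8% in HEYS. Ddx5-208, of 3593 bases, comes from the gene for an RNA helicase that acts in splicing. It stood at 199.5 CPM in HEAGM and 43.9 CPM in HEYS, of 501 and 558 CPM for the 23 members together. The near-equal shares of this list in HEAGM and HEYS therefore depended on Ddx5-208. Ddx5-208 took 56.5% of Ddx5 in HEAGM (45.9, 59.95 and 60.5% in the runs) and 19.5% in HEYS (15.1, 25.1 and 17.97%). Cell values ran from 12.5 to 93.5% in HEAGM with a median of 55.6% over 42 cells, and from 0 to 70.0% in HEYS with a median of 18.3% over 23 cells. The coding isoform Ddx5-201, of 3559 bases, took 31.8% and 25.8%, and the short coding isoform Ddx5-206, of 861 bases, took 3.74% and 39.3%. Snrpb-202, from the gene for a core Sm protein, was lower in HEAGM, at 75.1 CPM against 177 CPM, with 11.1% against 14.2% of its gene.

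Of the 20 members of cytosolic ribosomal protein genes, 10 (50%) were higher in HEAGM, 2 (10%) lower and 8 not called, beside 23.3% and 14.7% of all transcripts, and their median log2 ratio was 1.15. In the share of the parent gene, 1 of the 19 compared was higher by 10 points or more and 1 was lower. Together they took 14.3% of their genes in HEAGM (12.1, 14.5 and 15.9%) and 10.97% in HEYS (10.6, 11.02 and 11.2%). Rpsa-206 of the laminin receptor and ribosomal protein gene took 47.4% and 42.1%. The coding isoform Rpsa-204 had the same values, 408.9 CPM in HEAGM and 256.5 CPM in HEYS, so the estimate divided the reads evenly between them. No count of Rpsa-206 was within 1e-06 of a whole number.

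For 21 members of translation factor genes, 6 (28.6%) were higher in HEAGM, 5 (23.8%) lower and 10 not called, beside 23.3% and 14.7% of all transcripts. Their median log2 ratio was -0.19. Their share of their genes, 23.1% in HEAGM and 48.8% in HEYS, included Eef1b2-206. Eif3k-205, with only whole counts to within 1e-06, was lower in HEAGM, at 58.3 CPM against 150 CPM. Of 20 members of respiratory chain and ATP synthase genes, 3 (15%) were higher, 1 (5%) lower and 16 not called, both below the shares over all transcripts, with a median log2 ratio of 0.21. Their share of their genes was 21.7% in HEAGM and 17.8% in HEYS. Ndufb5-201 took 48.0% and 42.4%, and Cox8a-202 10.0% and 9.40%. Of 7 members of chromatin and transcription factor genes of blood emergence, 1 (14.3%) was higher, 1 (14.3%) lower and 5 not called, beside 23.3% and 14.7% of all transcripts. The higher one was Dnmt3a-214, at 8.03 CPM against 2.80 CPM, with 1.40% and 0.886% of its gene. The median log2 ratio was 1.33 over the 5 that could be compared, and the 7 together held only 359 counts over all cells. Meis1-207 took 16.2% of its gene in HEAGM and 13.1% in HEYS. Ezh2-209 took 3.04% and 12.9% at similar levels of 3.91 and 3.49 CPM. The retained-intron isoform Ezh2-213 stood at 103.9 CPM in HEAGM and 8.25 CPM in HEYS. Pfn1-204 of the profilin gene took 1.36% and 1.53%. The 2431 members in no list gave 471 (19.4%) higher and 482 (19.8%) lower.

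Genes of the decay machinery were compared at the gene level. Of 26 genes for NMD and exon junction complex factors, 9 were called higher in HEAGM than in HEYS, none was called lower and 17 were not called. The same rule called 19.9% of 16106 genes higher and 12% lower. These calls were not set beside genes of similar transcript length. The 9 included Upf1, the central helicase of the pathway, at 134 CPM in HEAGM and 8.11 CPM in HEYS, Rbm8a of the exon junction complex core at 101 and 19.1 CPM, Casc3 at 48.7 and 8.95 CPM and the release factor gene Etf1 at 44.2 and 9.504 CPM. Upf3b, Smg9, Gspt1 and Dcp2 were also among the 9. The core gene Magoh stood at 250 and 210 CPM. Among the 17 not called, Rnps1 (54.7 and 108 CPM), Pnrc2 (91.6 and 140 CPM), Upf2, Dhx34 and Xrn1 were lower in HEAGM. The others of the 17, with Magoh, were higher. Only 5 members belonged to the 26 genes, none was called in either direction, and their median log2 ratio was 0.14. Together they took 29.1% of their genes in HEAGM (21.2, 34.5 and 30.2% in the runs) and 40.6% in HEYS (47.9, 34.4 and 37.2%), so the runs overlapped. Smg6-202 took 50% of Smg6 in every run of both populations, and the coding isoform Smg6-201 had the same values, 8.56 CPM in HEAGM and 2.24 CPM in HEYS, so the estimate divided the reads evenly between them. Magohb-202 took 32.6% and 31.1%. Dcp1a-209 took 37.9% in HEAGM and 18.3% in HEYS, with the same CPM in both populations as the coding isoform Dcp1a-201. The second NMD isoform of this gene, Dcp1a-211, took 11.4% in HEAGM and 34.9% in HEYS. Of 9 genes known to respond to NMD without a member of this biotype, 1 was called higher in HEAGM (Snhg12, at 15.3 CPM against 7.27 CPM). Gas5, a noncoding host gene whose spliced RNA is a classic NMD target, was not called. It stood at 697 CPM in HEAGM and 445 CPM in HEYS. The other genes not called went in both directions. Atf4, Ddit3, Sat1 and Upp1 were lower in HEAGM, and Snhg1, Snhg15 and Gadd45b were higher.

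The arterial and plexus HE of the yolk sac differed little in NMD transcripts. The share of all counts was 0.12 points higher in HEYSA than in HEYSP, but by run the difference was 0.15, -0.10 and 0.22 points. Of the members, 131 were higher in HEYSA and 128 lower, 5.06% and 4.94%, beside 4.85% and 4.99% of all transcripts.

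From early to late HE the share of all counts differed by -0.080 points in the AGM (AGM_4 minus AGM_3), -0.017 in HEYSA and 0.148 in HEYSP, and in each case the sign changed between runs. In the AGM, 113 members (4.36%) were higher in the late cluster and 178 (6.87%) lower, beside 3.54% and 6.56% of all transcripts. In HEYSA 86 were higher and 82 lower, 3.32% and 3.17%, beside 2.86% and 3.50%. In HEYSP 138 were higher and 90 lower, 5.33% and 3.47%, beside 4.03% and 3.84%.

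AGM_5 had the lowest share of NMD transcripts. The difference of AGM_5 minus AGM_4 was -0.27 points, and -0.17, -0.51 and -0.19 points in runs 1, 2 and 3. Its share of the parent genes was 20.7%, a difference of -0.58 points and of -0.24, -1.53 and -0.33 points in the runs. The mean length of a counted transcript was 1333 bases in AGM_5 and 1443 bases in AGM_4. Here the lower NMD share went with the shorter mean length, whereas between HEAGM and HEYS it went with the longer. The part of length in this difference was not tested. Of the members, 66 (2.55%) were higher in AGM_5 and 134 (5.17%) lower, beside 3.62% and 5.77% of all transcripts. Ddx5-208 took 68.7% of its gene in AGM_5 and 57.1% in AGM_4, and Eef1b2-206 took 22.3% and 21.96%.

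The yolk sac progenitors kept shares close to those of the HE clusters they were compared with. YS_p1 stood at 4.02% of all counts against 3.99% in YS_m2, and YS_p2 at 3.91% against 3.96% in YS_b3, with differences whose sign changed between runs. In YS_p1, 98 members were higher and 98 lower than in YS_m2, 3.78% each, beside 2.83% and 3.77% of all transcripts. In YS_p2, 96 were higher and 95 lower than in YS_b3, 3.71% and 3.67%, beside 2.74% and 3.29%. Eef1b2-206 took 79.6% of its gene in YS_p1 and 81.3% in YS_p2.

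In single cells most members were not seen. A median of 425 members per HEAGM cell (206 to 688) and 308 per HEYS cell (120 to 550) had at least 1 count. After every cell was thinned to 28000 counts, which kept 49 HEAGM cells and 65 of 101 HEYS cells, both medians were 379 members, with ranges of 272 to 441 in HEAGM and 298 to 481 in HEYS.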

How the data were processed

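Reads were basecalled by the authors with Dorado and trimmed of adapters with bbduk. YACRD and porechop served to remove chimeras. Minimap2 then placed each read on the GENCODE transcriptome, given as release 37 in the study's methods. A read could keep more than 1 placement, and NanoCount turned the placements into a level for each transcript. The submitters' processing notes name minimap2 2.26, R 4.3.0 and DESeq2 1.40.2. The values used are the estimated counts as deposited, without any normalization. They can be fractions, since NanoCount divides reads that align to several transcripts. The deposited table that rescales these values to 1 common total was not used, nor were the authors' normalized values. The study names more than 1 mouse genome build, and none is tied to this table in the sources used here, so no coordinates are printed.

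Cells were grouped by cluster names in the sample titles. Cells below 17595 counts (the median minus 1 scaled median absolute deviation) were left out, which kept 208 of 221. Shares are of summed counts, and CPM is the summed count scaled to a group total of 1e6, not divided by transcript length. Ratios used a floor of 3 counts. Intervals are 95% exact binomial, after rounding to whole counts, and cover counting error only. Library size, sequencing run and shared reads bear on every value, and totals of 18131 to 125339 counts leave most members with few counts in a cell.

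Transcripts were named by a rule: the 12 members with the largest summed counts, the 8 largest and 8 smallest differences in parent share with the same sign in each run, the 3 largest of each gene list, and members of genes the study names for splicing. Sumo3-205, Rpl3-205, Slc25a3-202, Ctnnb1-208, Eef1b2-205, Dcp1a-211 and the isoforms and genes set beside members were chosen after their values were seen. The members and lists were chosen with earlier results of these data known. Structures and sequences came from GENCODE M21 transcripts with the same identifier, length and biotype. The identifier's version was not required, a departure from the plan. Some transcripts and genes that this rule covers are not reported here. No protein table was used. Alternatives covered the library limit, depth, runs, weighting of cells, the member minimum, gene classes, stage, cDNA project, whole-number values, clusters and the call rule, and transcript length was added after the data were seen. Software was Python 3.11.15 with pandas 2.3.3, numpy 2.4.6 and scipy 1.17.1, and figures were drawn with matplotlib 3.10.9.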

Additional observations from a re-analysis of the deposited data

Results flagged for a closer look

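The 13 cells left out for low totals, which had 95 to 17493 counts each, also held NMD transcripts. Members took 3.802% of their 98222 counts (95% exact binomial interval 3.68 to 3.92). A count of 0 at this depth would have allowed up to 0.00305%, a limit that speaks to presence only. Single cells ranged from 2.87 to 8.30%, with totals as low as 95 counts. These cells entered no comparison.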

How the results depend on the processing

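NMD transcripts took 3.71% of all counts and 22.9% of the counts of their parent genes over all cells, and the differences of HEAGM minus HEYS were -0.39 and -2.80 percentage points. The direction of both differences held in all alternatives that used members of every length. Restricted to members of 1600 bases and over, a choice made after the data were seen, both differences reversed, to 0.40 and 1.52 points. There 355 members were higher in HEAGM and 72 lower, with shares of 1.11% of all counts and 23.7% of the parent genes. For members under 1600 bases the differences were -0.79 and -4.86 points, the shares 2.60% and 19.8%, and 159 members were higher and 435 lower. Why length changes the direction was not tested. In cells with totals of 30000 to 60000 counts the parent share was 23.5% and 316 members were lower, with no HEAGM cell in run 3. With cells thinned to 28000 counts 344 members were higher and 313 lower. In run 1 alone the difference in the share of all counts was -0.53 points and the parent share 23.4%. In run 2 alone the share of all counts was 3.58% and the parent difference -2.17 points, and 430 members were higher and 324 lower. The mean over cells gave a parent share of 23.4%. A minimum of 1 count gave a parent share of 20.6%. A minimum of 50 counts gave shares of 3.35% and 27.7% with 248 members higher and 277 lower, and a minimum of 100 gave 3.00% and 29.9% with 132 and 171. Without cytosolic ribosomal protein genes the parent share was 24.4% and its difference -3.72 points. Without the 10 largest members the shares were 3.18% and 21.4% and the differences -0.25 and -2.06 points. With whole-number values alone (to within 1e-06), the shares were 4.39% and 24.6% and the differences -0.63 and -1.63 points. There 257 members were higher and 394 lower. A whole value can still come from reads divided among isoforms. Late clusters alone gave 302 higher and 386 lower members. A 4-fold limit gave 225 higher and 228 lower, and a limit of 10 points in the parent share 165 and 245. The main setting gave 514 and 507, so the balance of higher and lower moved with the setting. Except for the length classes and the parent share, no share over all transcripts was computed beside these alternative counts. A median of 357 members per cell had at least 1 count, and 633 had any value above 0. No paired analysis was possible because the replicate numbers only name cells and no result comes from a test. No value has a replicate check, and depth limits what single cells can show.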
